A study of Mus musculus with 12 samples.

Results

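The cytosolic ribosomal proteins are the proteins of the large (60S, genes named Rpl) and small (40S, genes named Rps) subunits of the ribosome that translates messenger RNA outside the mitochondria. Their genes were taken from the expression table by symbol: Rpl, Rps or Rplp followed by a number and at most the ending a, x, l or l1, without the Rps6k kinases and without pseudogene symbols, and with a mean of at least 1 FPKM (fragments scaled by transcript length and by library depth) over the 12 libraries. Of 27833 genes in the table, 82 had such a symbol and 79 reached the level: 43 large-subunit genes, 29 small-subunit genes, 3 genes of the P stalk and 4 genes whose symbols mark them as paralogues (Rpl6l, Rpl7l1, Rpl22l1 and Rps27l). Rpl3l, Rpl32l and Rpl39l stayed below the level. The symbol rule leaves out some proteins of the same particle, among them Rpsa, Fau, Rack1, Rpl36al, Rps27rt and Rps3a1, and these are given separately.

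The libraries were made from hippocampus of wild-type male C57BL/6J mice aged 20 months that were given, by oral gavage for 14 days, saline (CON, n = 3) or pyrroloquinoline quinone (PQQ) at 5 mg/kg (PQQ-L, n = 5) or 10 mg/kg (PQQ-H, n = 4) per day. PQQ is a redox-active quinone known as a bacterial enzyme cofactor. The study assigned 6 mice to each group, and no label ties a library to a named animal. All animals, controls included, were aged, so none of the comparisons is one of age. The study asked whether PQQ improves the cognitive performance of aged mice, and sequenced hippocampal RNA as one part of its search for mechanisms.

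Ribosomal protein genes are among the most strongly transcribed genes of any cell. One copy of each protein enters each ribosome, except for the P-stalk proteins, and the messenger RNAs of the family tend to move together. Nearly all of them start at a cytidine followed by a stretch of pyrimidines, the 5′ terminal oligopyrimidine (TOP) tract, through which mTOR and the RNA-binding protein Larp1 set how fast the messenger RNAs are translated. A few of the proteins act outside the ribosome too: Rpl5 and Rpl11 bind the p53 ligase Mdm2, and Rps6 is the substrate of the S6 kinases.

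The depth, recovered from the steps in the FPKM values, ran from 29654553 to 38179496 reads on genes per library. No member had fewer than 385 reads in any library. CON 2 had the fewest reads on genes and also the lowest summed level of the family, and the part of depth in the differences was not tested. In 4 libraries (2 of CON, numbers 1 and 3, and PQQ-H 1 and 2), a list of 12 striatal markers such as Drd1, Drd2 and Adora2a stood above the list of 10 hippocampal pyramidal and granule neuron markers, against the tissue label. The summed striatal markers came to 3375, 1378, 2533 and 1346 FPKM in those 4 libraries and to between 37.9 and 181 FPKM in the other 8. The summed hippocampal markers came to 81.7, 202, 178 and 198 FPKM in the 4 and to between 243 and 537 FPKM in the 8, and 1 of the 10 was listed at 0 in CON 1. None of the 12 striatal markers was at 0 in the 4 libraries, and 1 of the 12 was listed at 0 in PQQ-L 1 and in PQQ-H 4. All 12 choroid plexus markers were detected in CON, with sums of 4060, 1784 and 5951 FPKM, against 99.8 to 197 FPKM in PQQ-L and 76.6 to 94.4 FPKM in PQQ-H. Results are therefore given with and without the 4 libraries, which leaves CON with 1 library, assumed in that fit to vary like the other groups. That library, CON 2, had 136 FPKM of 9 summed thalamus markers (CON 1 had 140), against 18.8 to 104 FPKM in the PQQ libraries. Its 7 meninges markers summed to 37.5 FPKM, the highest of the 12 libraries, against 5.56 to 30.2 FPKM in the PQQ libraries. The fit without the 4 libraries is thus not a comparison of hippocampus alone. In tissue pieces, fewer cells of a type and less RNA per cell cannot be told apart.

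The starts of 10 members are shown first, since the pyrimidine stretch is the sequence feature the family is known for, and since the set spans genes with the largest (Rps26, Rps27l) and smallest (Rpl15, Rpl22l1, Rpl7l1) differences between PQQ-L and CON. Each line runs 5′ to 3′ on the gene's strand, from 10 bases before to 20 bases after the annotated start (RefSeq, build GRCm38.p6, which is not the mm39 build named in the submitters' processing notes), with the longest run of C or T in capitals.
Rps6 (chr4:86857348-86857377, minus strand): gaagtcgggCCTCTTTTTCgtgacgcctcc
Rps18 (chr17:33955646-33955675, minus strand): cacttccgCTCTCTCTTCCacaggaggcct
Rplp2 (chr7:141447641-141447670, plus strand): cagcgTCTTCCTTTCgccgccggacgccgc
Rpl28 (chr7:4792955-4792984, plus strand): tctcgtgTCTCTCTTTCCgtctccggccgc
Rps26 (chr10:128626487-128626516, minus strand): gcaagccgccggaTCCTCTTTCgagtcttg
Rpl15 (chr14:18270967-18270996, minus strand): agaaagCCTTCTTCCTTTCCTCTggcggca
Rpl22l1 (chr3:28805498-28805527, plus strand): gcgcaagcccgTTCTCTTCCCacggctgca
Rps27 (chr3:90213629-90213658, minus strand): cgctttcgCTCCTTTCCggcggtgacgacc
Rps27l (chr9:66946076-66946105, plus strand): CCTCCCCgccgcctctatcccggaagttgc
Rpl7l1 (chr17:46782637-46782666, minus strand): gCTgcgcaagcgcagtagctgaagcaccgg
The run was 17 bases long in Rpl15, 11 in Rps18 and Rpl28, 10 in Rps6, Rplp2 and Rpl22l1, 9 in Rps26 and Rps27, 7 in Rps27l and 2 in Rpl7l1. In Rps27l, whose start is the first of 2 entries for that gene, the run lies before the annotated start. It begins at the first base shown, so it may be longer than counted. In Rpl7l1 the marked run also lies before the start, and other runs of 2 bases lie after the start. In Rpl22l1 and Rps26 the run begins after it, at bases 2 and 4.

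A promoter entry was found for 58 of the 79 members. A run of at least 7 C or T between 20 bases before and 30 bases after the start was present in 40 of the 58 (69.0%), against 31.6% of the 10854 tested genes with an entry and 31.9% of 69 mitochondrial ribosomal protein genes. The letters CCGGAAG on either strand, the core that ETS-family factors such as GABP bind, were found in the 300-base window of 23 members (39.7%), in 26 mitochondrial ribosomal protein genes (37.7%) and in 18.6% of the tested genes. The letters AAGATGG on either strand, the core of the YY1 motif, were found in 10 members (17.2%) and 8.14% of tested genes, and TATAAA on either strand in 7 (12.1%) and 8.65%. These are matches of letters and not sites of binding. The median log2FC in PQQ-L vs. CON was −0.40 in the 40 members with the pyrimidine run (range −0.67 to −0.13) and −0.37 in the 18 without it (range −0.50 to −0.02). It was −0.39 in the 23 members with CCGGAAG and −0.40 in the 35 without it, so the members with and without either feature covered largely the same range.

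The summed level of the 79 genes set 3 libraries apart from the rest. It was 34276, 19943 and 30830 FPKM in CON 1, CON 2 and CON 3, and 20560, 22721, 20774, 20597 and 20372 FPKM in PQQ-L 1 to PQQ-L 5. In PQQ-H 1 to PQQ-H 4 it was 26651, 37287, 20572 and 24970 FPKM. CON and PQQ-H each held both the low and the high range, while all 5 PQQ-L libraries lay within the low one. The group values were 28350 ± 7482 FPKM in CON (SD, n = 3), 21005 ± 970 in PQQ-L (SD, n = 5) and 27370 ± 7091 in PQQ-H (SD, n = 4). As a share of reads on genes, the family took from 1.60% (CON 2) to 2.69% (CON 1) in CON, from 1.63% to 1.81% in PQQ-L and from 1.64% to 2.92% in PQQ-H. Without the 4 libraries rich in striatal markers, the sum was 19943 FPKM in the single CON library, 21005 ± 970 in PQQ-L (SD, n = 5) and 22771 ± 3110 in PQQ-H (SD, n = 2).

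**Figure D1:**
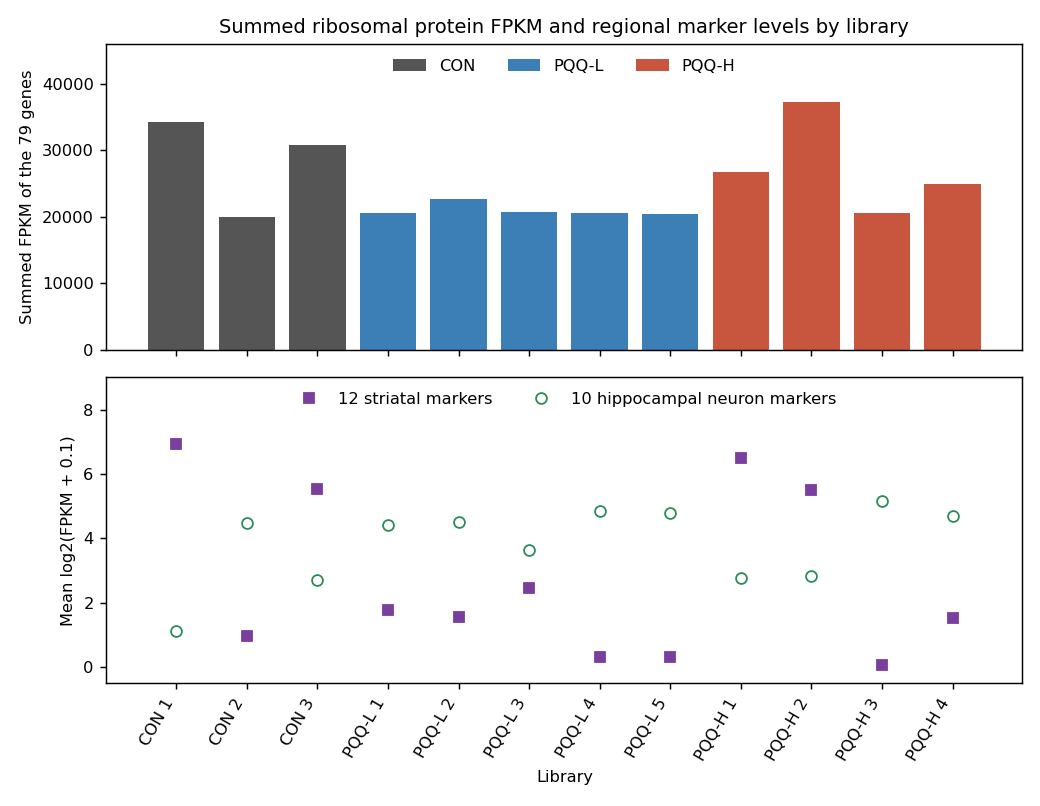
Summed FPKM of the 79 ribosomal protein genes in each library (bars, upper panel) and the mean log2(FPKM + 0.1) of 12 striatal and 10 hippocampal neuron markers in the same libraries (points, lower panel). The 4 libraries whose striatal level lies above the hippocampal level (numbers 1 and 3 of CON, 1 and 2 of PQQ-H) are the 4 with the highest summed FPKM, from 26651 to 37287.

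The 4 libraries with the highest summed FPKM were the 4 rich in striatal markers, and for 53 of the 79 genes the 4 highest values were exactly those libraries. CON 1 was among the 4 highest for 78 genes, PQQ-H 2 for 78, CON 3 for 76 and PQQ-H 1 for 54. PQQ-H 4, which is not rich in striatal markers, was among them for 24. PQQ-H 2 held the highest value of all libraries for 70 genes. CON 2 was lower than both other CON libraries for 78 of the 79 genes, lay within the PQQ-L range for 48 and below it for 31, and above every PQQ-L library for 0. CON 1 and CON 3 were both above every PQQ-L library for 76 genes. The ratio of the highest to the lowest library ran from 1.23 (Rpl7l1) to 2.65 (Rps26), with a median of 1.94. Summed oligodendrocyte and microglia markers were also higher in the 4 libraries than in the other 8: 1919 to 2981 against 1037 to 1806 FPKM, and 407 to 528 against 278 to 351 FPKM. Endothelium markers were higher there too, with sums of 87.6 to 122 against 68.0 to 82.3 FPKM. Summed markers of neurons in general were lower in the 4, at 1838 to 1947 against 2185 to 2306 FPKM. The part of regional or cell makeup in the ribosomal protein levels was not tested beyond the fits with and without those libraries.

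**Figure D2:**
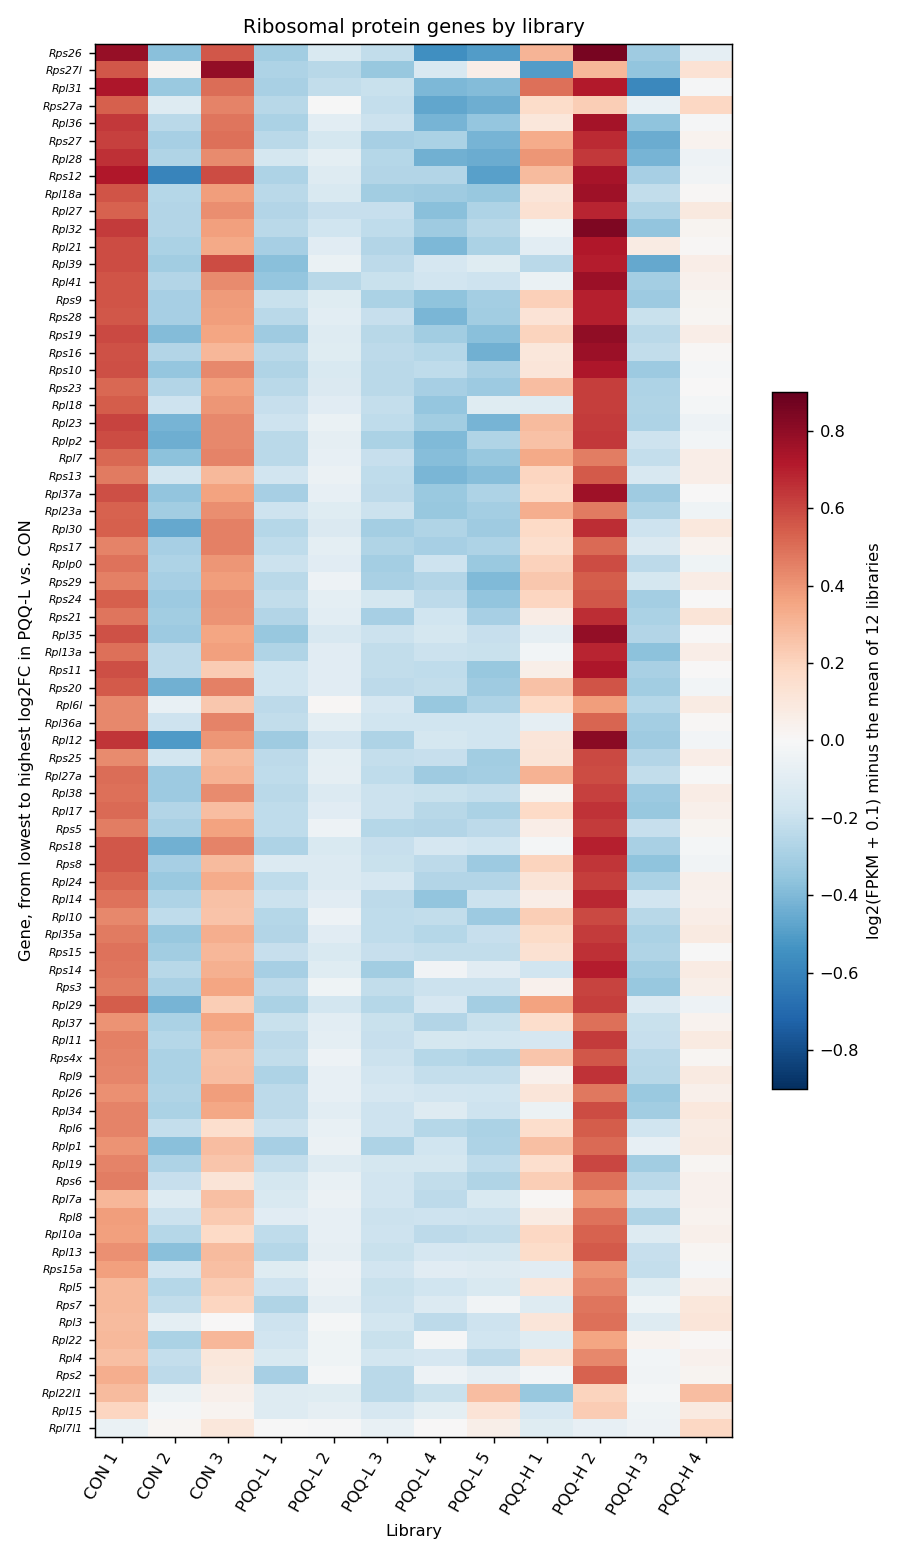
The 79 genes (rows, from lowest to highest log2FC in PQQ-L vs. CON) in the 12 libraries (columns), coloured by log2(FPKM + 0.1) minus the gene's mean over the libraries. CON 1, CON 3 and PQQ-H 2 are red in nearly all rows and CON 2, the PQQ-L libraries and PQQ-H 3 blue, while Rpl15 and Rpl7l1 at the bottom vary little.

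Levels per length differed widely among the members, also among those that enter the particle in equal number, such as Rps29 and Rps15a. The highest means over the 12 libraries were those of Rplp1 (1240 FPKM), Rps29 (1062 FPKM) and Rpl41 (1012 FPKM), and the median over the 79 genes was 266 FPKM. The lowest were the paralogues Rps27l (5.89 FPKM), Rpl7l1 (17.6 FPKM) and Rpl6l (19.4 FPKM), followed by Rps15a (34.9 FPKM) and Rps20 (48.2 FPKM). FPKM divides by length, and the lengths recovered from the FPKM steps were 322 bases for Rps29, 5136 for Rps15a and 3641 for Rps20. Reads per library were closer, at 8045 to 16249 for Rps29, 4665 to 8132 for Rps15a and 3731 to 8864 for Rps20. Much of the gap in FPKM between these genes thus goes with the length used. Most ribosomal protein genes have near-identical processed copies elsewhere in the genome, and how the counting treated reads that fit several copies is not given in the sources used here, so the levels of single members are uncertain to that extent.

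Averaged over libraries, PQQ-L was below CON for all 79 genes, by a median log2FC of −0.40 (range −0.67 to −0.02), where 53.9% of the 13796 genes tested were lower and the median of all was −0.03. No member passed the test for any single gene: 0 of 79 had an adjusted p below 0.05 (limma, Benjamini-Hochberg over all genes tested; lowest 0.157), against 81 lower genes or 0.587% of all. At an unadjusted p below 0.05, 22 of the 79 were lower, and 11.6% of all genes were. Of the 2299 genes with the shortest transcripts (105 to 1631 bases), where 67 of the 79 fell, 555 were lower at that p. For 0 of the 79 did all PQQ-L libraries lie below all CON libraries, a pattern found in 7.66% of all genes, since CON 2 was never above the PQQ-L range. The large-subunit genes (median −0.39), the small-subunit genes (median −0.42) and the stalk genes (median −0.43) were alike in size.

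The size of this difference depended on each of the 3 CON libraries. The median was −0.23 without CON 1 and −0.32 without CON 3, and the 22 members at an unadjusted p below 0.05 became 2 and 1. They became 4 without PQQ-L 1, 4 or 5 and 7 without PQQ-L 3. Without CON 2, the median was −0.63 and 62 of the 79 genes had an adjusted p below 0.05, all lower, against 10.7% of all genes, and 1 of them (Rps26) also passed a log2FC of −1. In that fit, 586 of the 2299 genes with the shortest transcripts were also lower at that adjusted p. So were 49 of 101 nuclear genes of the respiratory complexes. Without the 4 libraries rich in striatal markers, the direction turned: the median was 0.07, 64 of the 79 were higher in PQQ-L than in the single CON library left, where 42.0% of all genes were higher, and 0 had an adjusted p below 0.05 (0 lower and 0 higher at an unadjusted p below 0.05). With the striatal marker level as a covariate, the median was −0.08. Scaling moved it less, to −0.36 with median-of-ratios factors, −0.29 as TPM, where the median of all genes shifted to 0.08, and −0.19 after quantile normalization.

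**Figure D3:**
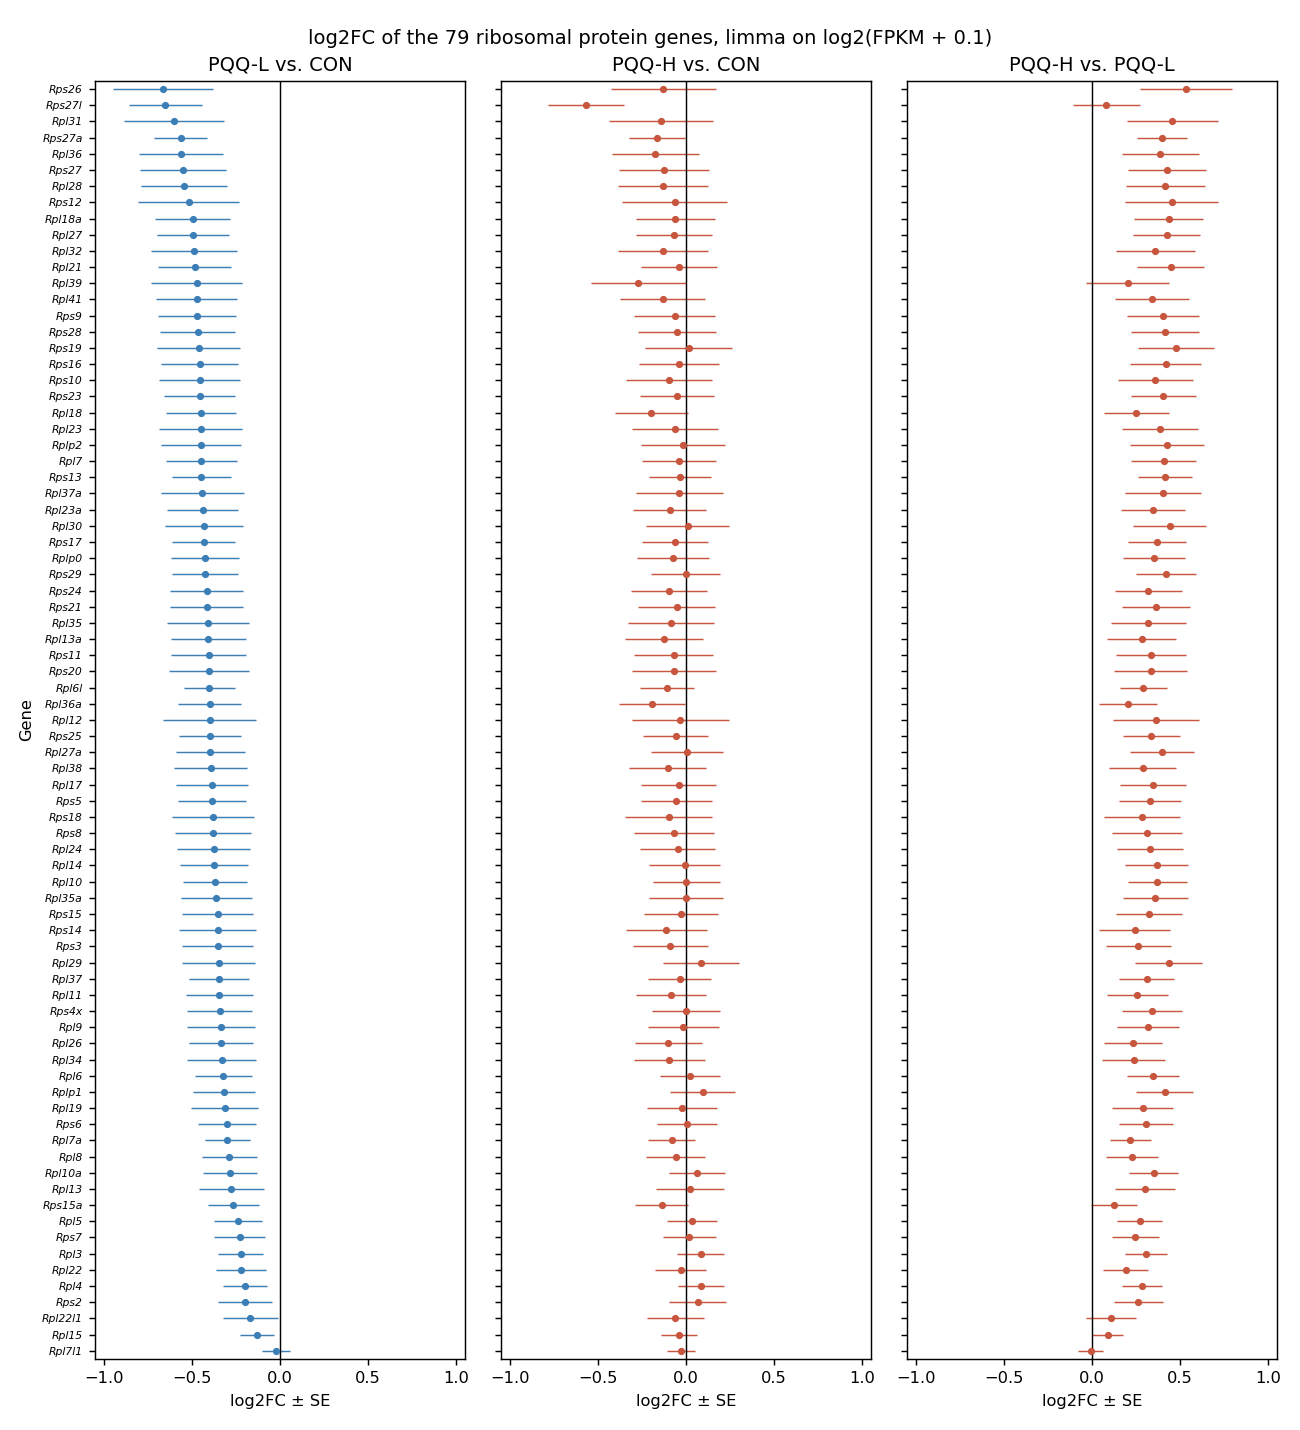
log2FC (points) with its standard error (bars) of the 79 genes in the 3 comparisons, from limma on log2(FPKM + 0.1), in the order of PQQ-L vs. CON. In PQQ-L vs. CON every point is below 0, in PQQ-H vs. CON the points lie around 0 with Rps27l at −0.57 apart, and in PQQ-H vs. PQQ-L 78 of 79 are above 0.

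The lowest log2FC in PQQ-L vs. CON was that of Rps26, a protein of the mRNA exit channel. It measured 621, 277 and 530 FPKM in CON, 290, 327, 308, 246 and 254 in PQQ-L, and 446, 653, 289 and 341 in PQQ-H. The log2FC was −0.67 ± 0.28 (SE; limma adjusted p = 0.237), and CON 2 lay inside the PQQ-L range. Rps27l (−0.65 ± 0.21; limma adjusted p = 0.195), Rpl31 (−0.60 ± 0.28; 0.247), Rps27a (−0.57 ± 0.15; 0.157) and Rpl36 (−0.56 ± 0.24; 0.237) came next. Rps27a, which is made as a fusion of ubiquitin and a small-subunit protein, measured 370, 235 and 348 FPKM in CON and 214, 254, 220, 184 and 187 in PQQ-L, so that only PQQ-L 2 reached above CON 2. Its values in PQQ-H were 285, 296, 243 and 290 FPKM. Rpl31, of the large subunit near the exit of the peptide tunnel, measured 443, 212 and 379 FPKM in CON and 202 to 232 in PQQ-L, and Rpl36 244, 133 and 218 in CON and 117 to 146 in PQQ-L.

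At the other end stood Rpl7l1 (−0.02 ± 0.08), Rpl15 (−0.13 ± 0.10), Rpl22l1 (−0.17 ± 0.16), Rps2 (−0.20 ± 0.15) and Rpl4 (−0.20 ± 0.12), all from limma with adjusted p from 0.308 to 0.852. Rpl15, a core protein of the large subunit, measured 107, 92.6 and 95.2 FPKM in CON and 86.4, 88.7, 84.3, 88.1 and 102 in PQQ-L. Rps2, which lines the mRNA entry, measured 424, 287 and 360 FPKM in CON and 274, 334, 285, 327 and 319 in PQQ-L, with 333, 489, 331 and 344 in PQQ-H. Rpl4, which forms part of the peptide tunnel, measured 527, 376 and 468 FPKM in CON and 371 to 425 in PQQ-L. In each of these the groups overlapped.

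The P stalk recruits the elongation factors to the ribosome and is built from Rplp0 and dimers of Rplp1 and Rplp2. Rplp0 measured 262, 154 and 245 FPKM in CON, 163, 174, 151, 164 and 148 in PQQ-L, and 215, 280, 159 and 182 in PQQ-H. Rplp1 measured 1608, 937 and 1471 FPKM in CON, 986, 1170, 1001, 1072 and 1003 in PQQ-L, and 1465, 1727, 1156 and 1284 in PQQ-H. Rplp2 measured 448, 220 and 403 FPKM in CON, 252, 282, 244, 226 and 247 in PQQ-L, and 359, 464, 262 and 294 in PQQ-H. For Rplp1 and Rplp2, CON 2 was below all 5 PQQ-L libraries. The log2FC in PQQ-L vs. CON was −0.43 ± 0.19, −0.32 ± 0.18 and −0.45 ± 0.23 (SE) for Rplp0, Rplp1 and Rplp2, and none passed the test (limma adjusted p from 0.242 to 0.273).

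Among the members with known roles outside peptide synthesis, Rps6, the S6 kinase substrate, measured 274, 173 and 216 FPKM in CON, 179, 190, 177, 171 and 165 in PQQ-L, and 233, 282, 169 and 205 in PQQ-H (log2FC −0.30 ± 0.17 in PQQ-L vs. CON, limma adjusted p = 0.272). Rpl5 and Rpl11, which join the 5S RNA in 1 particle and bind Mdm2, gave −0.24 ± 0.14 and −0.34 ± 0.19 (limma adjusted p = 0.286 and 0.276). Rpl5 measured 175 ± 34.3 FPKM in CON (SD, n = 3), 146 ± 6.31 in PQQ-L (SD, n = 5) and 178 ± 29.3 in PQQ-H (SD, n = 4), and Rpl11 195 ± 47.2, 151 ± 5.88 and 185 ± 53.1 in the same groups. Rpl13a, known for its part in an interferon-dependent block of translation, measured 678 ± 169, 499 ± 21.6 and 631 ± 205 FPKM. Rps3, which also has a DNA repair activity, measured 283 ± 73.6, 216 ± 12.5 and 267 ± 75.3 FPKM. Rpl10, which is among the last proteins to join the large subunit, measured 404 ± 90.1, 308 ± 22.9 and 407 ± 101 FPKM. Rpl41, the shortest of the proteins, measured 1192 ± 334, 834 ± 40.2 and 1101 ± 389 FPKM. In all 7 genes the SD in CON and PQQ-H was larger than in PQQ-L. Without the 4 libraries rich in striatal markers, the 27 members named for PQQ-L vs. CON lay between −0.22 and 0.19 (7 lower and 20 higher), with limma adjusted p from 0.978 to 0.993.

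In PQQ-H vs. CON the family was close to level. The median log2FC was −0.06 (range −0.57 to 0.09), with 63 of the 79 lower, where 55.6% of all genes were lower and the median of all was −0.03. An adjusted p below 0.05 was reached by 0 of the 79 (limma; lowest 0.401), against 1.08% of all genes in the lower direction. Only Rps27l had an unadjusted p below 0.05 (7.88% of all genes lower), and 0 members had separate groups (5.72% of all genes, lower). The count of lower members depended on the scaling, with 30 of 79 lower with median-of-ratios factors, 57 as TPM and 43 after quantile normalization. It also depended on single libraries, with 9 lower without CON 1, 26 without CON 3, 13 without PQQ-H 3, 78 without CON 2 and 79 without PQQ-H 2. Without the 4 libraries rich in striatal markers the median was 0.17 and 77 of the 79 were higher, where 41.7% of all genes were, with 0 past an adjusted p of 0.05 and 8 higher at an unadjusted p below 0.05.

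Rps27l had the lowest log2FC in PQQ-H vs. CON (−0.57 ± 0.22, limma adjusted p = 0.401). It was followed by Rpl39 (−0.27 ± 0.27), Rpl18 (−0.20 ± 0.21), Rpl36a (−0.19 ± 0.19) and Rpl36 (−0.17 ± 0.25), each close to its standard error or smaller. Rpl39, a short protein of the peptide tunnel, measured 467, 250 and 466 FPKM in CON and 263, 507, 226 and 324 in PQQ-H, and Rpl18 119, 71.9 and 108 in CON and 75.6, 126, 67.9 and 81.0 in PQQ-H. At the upper end stood Rplp1 (0.09 ± 0.18), Rpl29 (0.09 ± 0.22), Rpl4 (0.09 ± 0.13), Rpl3 (0.08 ± 0.14) and Rps2 (0.07 ± 0.16), whose signs turned without CON 2 and without PQQ-H 2, except that Rpl3 kept its sign without CON 2. Without the 4 libraries rich in striatal markers, 9 of these 10 genes were higher in PQQ-H, with Rps27l at −0.14. Rpl3, which helps to form the peptidyl transferase centre, measured 646, 500 and 531 FPKM in CON, 467, 524, 473, 452 and 466 in PQQ-L, and 574, 747, 490 and 573 in PQQ-H. Rpl29 measured 143, 73.2 and 114 FPKM in CON and 126, 150, 89.6 and 95.0 in PQQ-H.

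Between the doses, 78 of the 79 genes were higher in PQQ-H than in PQQ-L (45.7% of all genes higher), by a median log2FC of 0.34 (all genes −0.02). An adjusted p below 0.05 was reached by 0 of 79 (limma; lowest 0.580), as by 0.0% of all genes in that direction, and 17 were higher at an unadjusted p below 0.05 (3.55% of all genes). In 3 members all PQQ-H libraries were above all PQQ-L libraries (1.42% of all genes). Rps26 had the largest difference (0.54 ± 0.26, chosen after its value was seen) and Rpl7l1 the only one below 0 (−0.01 ± 0.07). The median was 0.19 without PQQ-H 2, 0.47 without PQQ-H 3 and 0.10 without the 4 libraries rich in striatal markers, with 77 of 79 still higher there. PQQ-L enters this comparison and that with CON, so the 2 are not independent of each other.

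**Figure D4:**
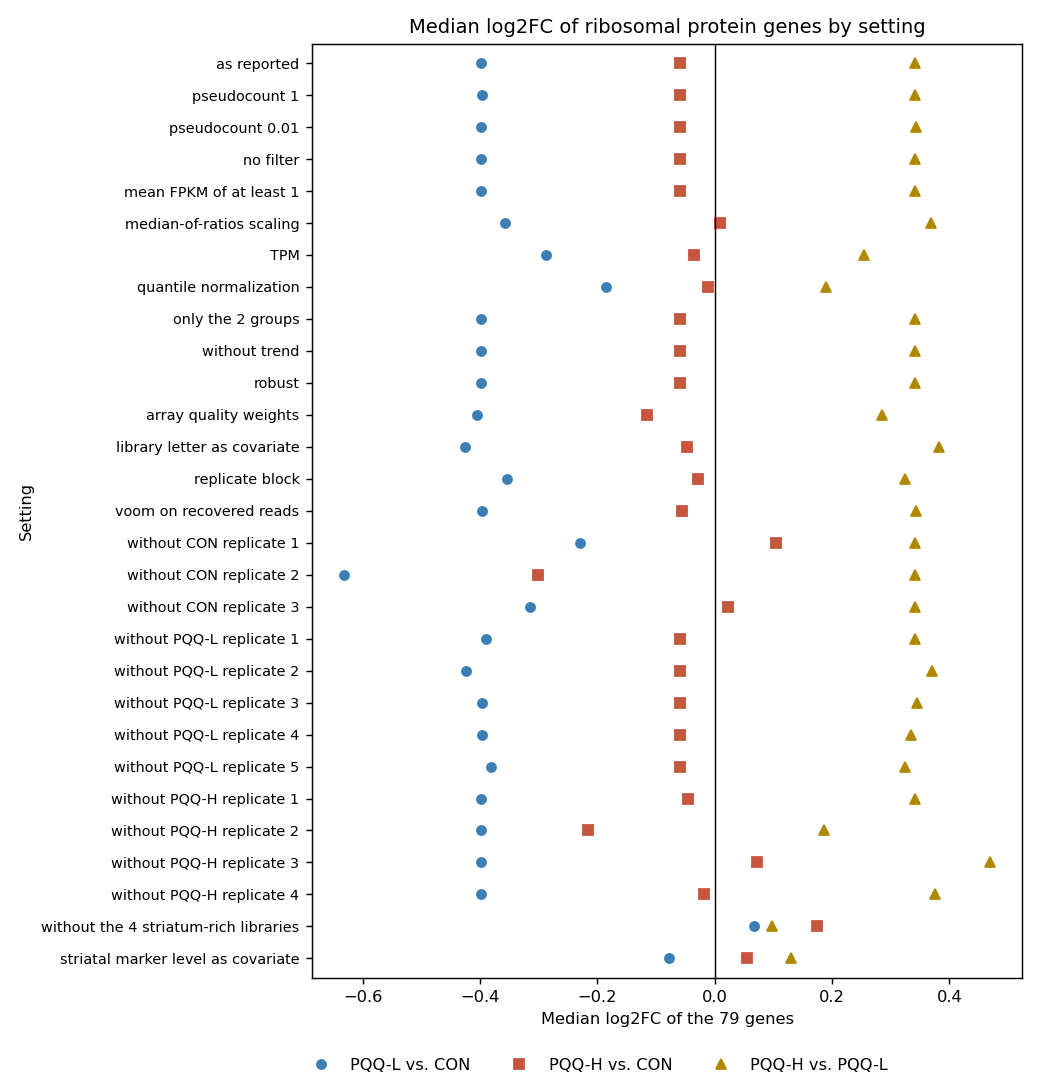
Median log2FC of the 79 genes in each comparison (3 symbols) under each way of fitting or scaling the data, and with each library left out. PQQ-L vs. CON stays between −0.63 and −0.08 except without the 4 libraries rich in striatal markers, where it is 0.07, while PQQ-H vs. CON lies on either side of 0.

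Several ribosomal proteins have a second gene that is used in particular tissues or states. The ratio of the second to the first gene was compared over libraries, which takes out whatever moves both alike. In 4 pairs both genes reached a mean of 0.5 FPKM, and these were tested at each dose against CON, giving 8 tests. None had a two-sided exact permutation p below 0.05: the lowest raw p was 0.171 and the lowest Benjamini-Hochberg value 0.571. The smallest p these designs allow is 0.0357 for PQQ-L vs. CON and 0.0571 for PQQ-H vs. CON. After adjustment over the 8 tests, no ratio at either dose could have passed 0.05, even with every test at its smallest p. The tests therefore cannot tell whether the ratios differed. Without the 4 libraries rich in striatal markers, which leaves 1 CON library and no test, the differences of the 8 log2 ratios from CON lay between −0.24 and 0.10.

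Rpl22l1 measured 234, 185 and 199 FPKM in CON, 177, 178, 163, 167 and 233 in PQQ-L, and 152, 221, 190 and 234 in PQQ-H. Its partner Rpl22, an RNA-binding protein of the large subunit that is dispensable for translation in most cells, measured 73.9, 49.6 and 74.1 FPKM in CON, 53.5, 58.8, 52.6, 59.9 and 53.2 in PQQ-L, and 55.8, 77.2, 61.8 and 60.8 in PQQ-H. Per length, the paralogue was thus above the first gene in every library, by a log2 ratio of 1.66 ± 0.24 in CON (SD, n = 3), 1.71 ± 0.25 in PQQ-L (SD, n = 5) and 1.63 ± 0.22 in PQQ-H (SD, n = 4). This order rests on the recovered lengths, 486 bases for Rpl22l1 and 2208 for Rpl22. Reads per library were 2600 to 4048 for Rpl22l1 and 3246 to 5797 for Rpl22. The ratio was highest in PQQ-L 5 (2.13), and it differed from CON by 0.05 in PQQ-L (exact permutation p = 0.821) and by −0.03 in PQQ-H (exact permutation p = 0.914).

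Rpl7l1 was the steadiest member, with 16.9, 17.8 and 18.9 FPKM in CON, 17.6, 17.5, 16.8, 17.6 and 18.3 in PQQ-L, and 16.3, 16.7, 17.0 and 20.1 in PQQ-H. Rpl7, its partner, measured 467, 253 and 444 FPKM in CON, 276, 309, 283, 250 and 258 in PQQ-L, and 413, 448, 282 and 340 in PQQ-H. The log2 ratio of Rpl7l1 to Rpl7 was −4.78, −3.82 and −4.55 in CON 1 to CON 3 and between −4.14 and −3.81 in PQQ-L, and in PQQ-H it was −4.65, −4.74, −4.04 and −4.08. It separated the 4 libraries rich in striatal markers (at most −4.55) from the other 8 (at least −4.14) rather than the treatment groups. The mean difference was 0.42 in PQQ-L vs. CON (exact permutation p = 0.179) and 0.01 in PQQ-H vs. CON (exact permutation p = 0.914).

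Rps27l, a p53 target whose product resembles Rps27 closely, measured 8.43, 5.79 and 9.91 FPKM in CON, 4.66, 4.76, 4.47, 5.12 and 5.94 in PQQ-L, and 3.98, 7.02, 4.41 and 6.22 in PQQ-H. Rps27 measured 834, 441 and 764 FPKM in CON, 459, 488, 442, 445 and 406 in PQQ-L, and 684, 865, 398 and 555 in PQQ-H. The log2 ratio was −6.36 ± 0.21 in CON (SD, n = 3), −6.46 ± 0.24 in PQQ-L (SD, n = 5; exact permutation p = 0.607) and −6.81 ± 0.44 in PQQ-H (SD, n = 4; exact permutation p = 0.171), with the lowest ratio, −7.39, in PQQ-H 1. Rps27rt, an intronless copy of Rps27, may share its reads. Rps27l had its lowest value of all 12 libraries in PQQ-H 1, a library among the 4 highest for 54 of the 79 genes. Rpl22l1 (152 FPKM), Rpl7l1 (16.3 FPKM) and Rpl15 (84.2 FPKM) were also lowest in PQQ-H 1.

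Rpl36al measured 121, 90.3 and 107 FPKM in CON, 91.5, 89.8, 90.8, 82.3 and 86.9 in PQQ-L, and 99.8, 121, 90.7 and 109 in PQQ-H. Rpl36a, from the X chromosome, measured 305, 198 and 307 FPKM in CON, 194 to 212 in PQQ-L and 214, 325, 183 and 227 in PQQ-H. The log2 ratio differed from CON by 0.14 in PQQ-L (exact permutation p = 0.250) and by 0.18 in PQQ-H (exact permutation p = 0.286). Rpl3l, the heart and skeletal muscle form of Rpl3, was at 0.0309 to 0.239 FPKM (2 to 15 reads), and Rpl39l, the testis form of Rpl39, at 0 to 0.165 FPKM (0 to 5 reads), too low for a ratio. Rpl10l and Rps4l were not analysed here. Rps4x, the X-linked partner of the latter, measured 270 ± 67.0 FPKM in CON (SD, n = 3), 209 ± 13.7 in PQQ-L (SD, n = 5) and 270 ± 64.3 in PQQ-H (SD, n = 4).

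**Figure D5:**
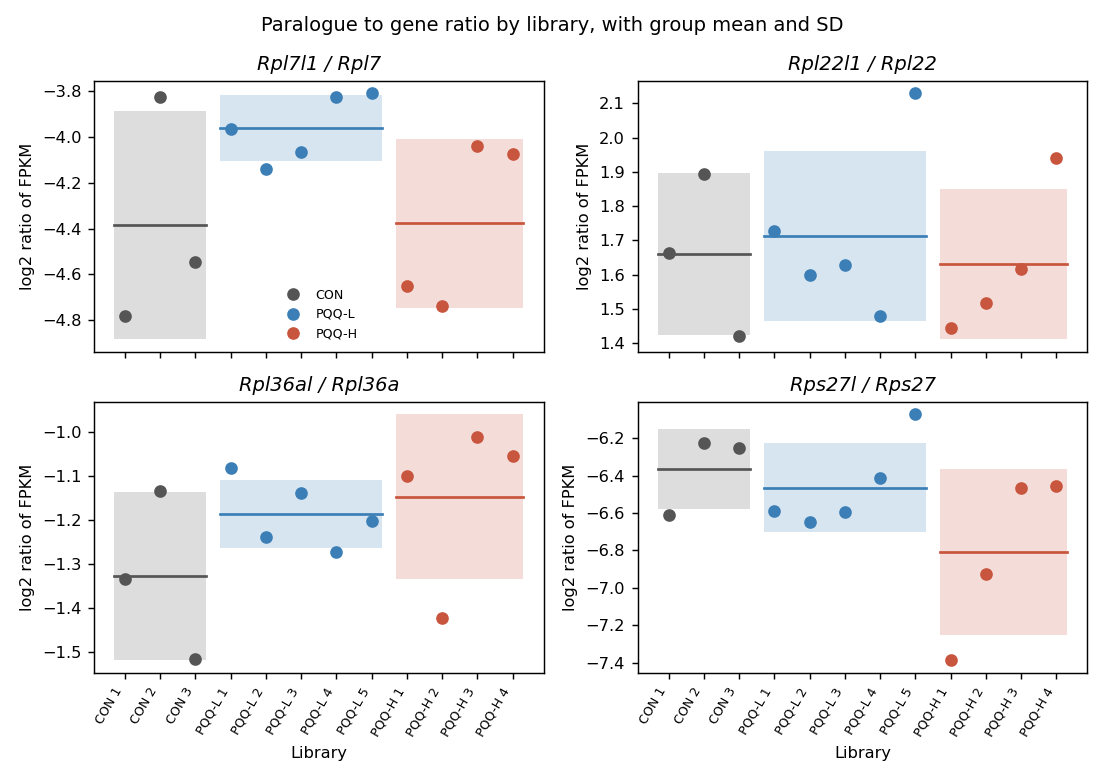
log2 ratio of the paralogue to its partner gene, log2((FPKM + 0.1)/(FPKM + 0.1)), in each library for 4 pairs, with the group mean (line) and SD (band). The Rpl7l1 ratio is at most −4.55 in the 4 libraries rich in striatal markers and at least −4.14 elsewhere, and in the other pairs the groups overlap.

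Of the proteins of the particle that the symbol rule left out, 5 listed genes (Rpsa, Fau, Rack1, Rpl36al and Rps27rt) had the family's direction: in PQQ-L vs. CON all 5 had a log2FC below 0, with a median of −0.30, between −0.45 (Fau) and −0.26 (Rpl36al), and 0 had a limma adjusted p below 0.05. Rps3a1 (−0.29 ± 0.19, named after its value was seen) was in the same range. The median of the 5 was −0.06 in PQQ-H vs. CON, between −0.23 (Rps27rt) and −0.01 (Rpsa), and in PQQ-H vs. PQQ-L 0.29, between 0.06 (Rps27rt) and 0.38 (Fau).

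Translation factors and a few other genes whose messenger RNAs are also known to carry a TOP tract showed a smaller difference. Of 18 such genes, 15 were lower at the low dose than with saline (53.9% of all genes), with −0.19 as the median log2FC. The test was passed by 0 of them, and 4 were lower at an unadjusted p below 0.05 (11.6% of all genes). Tpt1 was lowest (−0.47 ± 0.19, limma adjusted p = 0.234), with 713, 438 and 734 FPKM in CON and 411 to 474 in PQQ-L, and Eif4a2, a helicase that opens messenger RNA for the small subunit, highest (0.17 ± 0.11). The median was −0.03 in PQQ-H vs. CON, between −0.17 (Tpt1) and 0.12 (Eif4a2), and in PQQ-H vs. PQQ-L 0.16, between −0.05 (Eif4a2) and 0.40 (Eef1b2).

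Factors that make ribosomes stayed near the median of all genes. Of 50 ribosome biogenesis genes, 28 were lower in PQQ-L vs. CON (53.9% of all genes). Their median log2FC was −0.03, between −0.37 (Nhp2, of the pseudouridylation complex) and 0.37 (Mphosph10, of the small-subunit processome). At the high dose against CON the median was 0.03, between −0.26 (Polr1a, the largest subunit of RNA polymerase I) and 0.18 (Mphosph10), and in PQQ-H vs. PQQ-L 0.05, between −0.29 (Mdn1) and 0.40 (Nhp2). None of the 50 passed the test in any comparison (lowest limma adjusted p 0.235 in PQQ-L vs. CON). Of 5 noncoding hosts of small nucleolar RNAs, 5 were lower in PQQ-L, between −0.42 (Snhg6) and −0.21 (Snhg12), with a median of −0.22 and 0 past the test. Their median was 0.07 in PQQ-H vs. CON, between −0.23 (Snhg1) and 0.10 (Snhg8), and 0.29 in PQQ-H vs. PQQ-L, between 0.09 (Snhg1) and 0.51 (Snhg6).

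The list of 24 genes of mTOR signalling, S6 kinases and control of TOP messenger RNAs had its median above 0 in PQQ-L vs. CON. The median was 0.07, with 8 lower and 16 higher (53.9% of all genes lower) and 0 past the test. Its extremes were the 2 genes for eIF4E-binding proteins, the repressors of cap-dependent translation that mTOR releases. Eif4ebp1 measured 5.42, 2.47 and 4.63 FPKM in CON and 2.49, 1.47, 1.91, 4.29 and 1.64 in PQQ-L (log2FC −0.83 ± 0.42, limma adjusted p = 0.256). Eif4ebp2, the main form in brain, measured 4.97, 7.68 and 5.03 FPKM in CON and 8.22, 8.30, 8.18, 7.89 and 9.63 in PQQ-L, all 5 above CON (log2FC 0.54 ± 0.15, limma adjusted p = 0.166). Such a separation upward was found in 1 of the 24 genes and in 409 of the 13796 tested. CON 2 (7.68) lay just under the lowest PQQ-L value (7.89), and the lower CON 1 and CON 3 are rich in striatal markers. The median was 0.00 in PQQ-H vs. CON, with the same extremes, −0.64 and 0.33, and in PQQ-H vs. PQQ-L it was −0.07, between −0.35 (Larp4) and 0.19 (Eif4ebp1).

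The mitochondrial ribosome, a separate particle encoded in the nucleus by genes named Mrpl and Mrps, showed the same sign with a smaller size. Of 78 genes, 72 were lower in PQQ-L vs. CON (53.9% of all genes). The median log2FC was −0.15, between −0.43 (Mrpl14) and 0.07 (Mrpl1), and 0 passed the test. At an unadjusted p below 0.05, 19 were lower (11.6% of all genes). In 10 of them all PQQ-L libraries lay below all CON libraries (7.66% of all genes). For these 78 genes the median was −0.03 in PQQ-H vs. CON, between −0.33 (Mrpl58, limma adjusted p = 0.0520) and 0.25 (Mrps33), and in PQQ-H vs. PQQ-L 0.10, between −0.09 (Mrpl1) and 0.49 (Mrpl52). Of 101 tested nuclear genes of the respiratory complexes, assembly factors included, 98 were lower in PQQ-L vs. CON (53.9% of all genes), the median being −0.25. In that comparison, 46 of the 101 were lower at an unadjusted p below 0.05, beside 22 of the 79 cytosolic members. In 21 of the 101, all PQQ-L libraries lay below all CON libraries, beside 0 of the 79. Only Cox8b (−3.42 ± 0.42, limma adjusted p = 0.00270) passed the test there, and in PQQ-H vs. CON Cox8b (−3.80 ± 0.44, limma adjusted p = 0.00117) and Cox6b2 (−1.62 ± 0.30, limma adjusted p = 0.0282) did, with a median of −0.08. In PQQ-H vs. PQQ-L the median was 0.14, between −0.38 (Cox8b) and 0.999 (Cox7b2).

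Without the 4 libraries rich in striatal markers, the medians of these 7 lists in PQQ-L vs. CON lay between −0.06 (respiratory complexes) and 0.14 (noncoding hosts), and none of their genes passed the test in any comparison. The fold changes of the called genes stayed large there. Cox8b was at −2.35 ± 0.52 for the low dose against CON. For the high dose, Cox8b was at −2.60 ± 0.58 and Cox6b2 at −1.35 ± 0.40. CON 2, the CON library left, still held 1784 FPKM of summed choroid plexus markers, against 76.6 to 197 FPKM in the PQQ libraries. Over CON 1 to CON 3, those markers summed to 4060, 1784 and 5951 FPKM. Cox8b (22.0, 8.64 and 31.8 FPKM) and Cox6b2 (8.69, 5.40 and 11.2 FPKM) had the same order. The part of choroid plexus tissue in these fold changes was not tested.

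Genes of short transcripts were also high in some of the same libraries. The 79 members had a median length of 821 bases, as recovered from the FPKM steps, against 3595 bases over all genes tested, and 67 of the 79 fell in the shortest sixth of the tested genes, those of 105 to 1631 bases. The 2299 genes of that sixth had a median log2FC of −0.22 in PQQ-L vs. CON, with 1872 lower, −0.07 in PQQ-H vs. CON and 0.13 in PQQ-H vs. PQQ-L. The longest sixth had medians of 0.18, 0.03 and −0.15. The median of the shortest sixth, as a log2 deviation from the gene means, was 0.28 in CON 1, 0.14 in CON 3 and 0.17 in PQQ-H 2, and at most 0.07 in the other 9 libraries. At an unadjusted p below 0.05, 555 genes of the shortest sixth were lower in PQQ-L vs. CON, beside 22 of the 79 members. The members' medians in PQQ-L vs. CON (−0.40) and between the doses (0.34) were larger than those of that sixth. The sixth was not matched to the members in length, and the part of length in the differences was not tested.

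The library names open with L in 7 libraries and with R in 5, and what the letters stand for is not given in the sources used here. Within L, the median difference over the 79 genes in PQQ-L vs. CON was −0.27 (2 libraries against 2), and within R −0.69 (3 against 1). In PQQ-H vs. CON it was 0.14 within L (3 against 2) and −0.44 within R (1 against 1), so its sign was not the same, and in PQQ-H vs. PQQ-L 0.43 (3 against 2) and 0.21 (1 against 3).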

How the data were processed

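Hippocampal RNA was sequenced in 12 libraries (CON 3, PQQ-L 5, PQQ-H 4). Per the study's methods, the authors filtered reads with fastp, aligned them with HISAT2 and counted them with HTSeq-count (build mm39 in the submitters' processing notes; versions, annotation and strand setting are not given in the sources used here). The deposited values are FPKM per gene, and columns of no sample numbered 0. Reads per gene were recovered from the FPKM steps (100% of 25563 genes above 0 in at least 2 libraries came out whole within 0.02 reads). log2(FPKM + 0.1) of the 13796 genes with a mean of at least 0.5 FPKM was fitted over all 12 libraries with limma 3.58.1 (R 4.3.3; lmFit, eBayes with trend), with Benjamini-Hochberg adjustment over all genes; a log2FC is therefore on the log2(FPKM + 0.1) scale. The script was tested on simulated data. Paralogue ratios were compared by two-sided exact permutation over libraries (scipy 1.17.1). Values are per library, named by group and number. Nothing says that libraries of a group came from separate animals, so p-values measure the spread between these libraries.

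The members and lists were chosen with earlier results of these data known. Named genes are the paralogue pairs, members with a known role (Rplp0, Rplp1, Rplp2, Rps6, Rpl5, Rpl11, Rpl13a, Rps27a, Rpl41, Rps3, Rpl10), the 5 lowest and 5 highest log2FC of either dose against CON, and in each pathway list the genes past the test, otherwise the lowest and the highest. Alternatives covered pseudocounts, filters, scalings, weights, covariates, voom on recovered reads and each library left out. Those on the striatal markers were added after seeing the data. Promoter sequences are RefSeq's (GRCm38.p6). A gene of the list of other ribosomal proteins is not reported here.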

Additional observations from a re-analysis of the deposited data

Results flagged for a closer look

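Dixon's test was run within PQQ-L and PQQ-H (68 sets of values in all, CON with its 3 libraries being too small), and 5 sets held a library far from the others, where chance would flag about 1 in 20. The summed FPKM of the 79 genes was 22721 in PQQ-L 2 against 20372 to 20774 in the other 4 PQQ-L libraries. Rps3 measured 238 FPKM in the same library against 207 to 214. Rpl22l1 measured 233 FPKM in PQQ-L 5 against 163 to 178, and Rpl15 102 FPKM in PQQ-L 5 against 84.3 to 88.7. Rps2 measured 489 FPKM in PQQ-H 2 against 331 to 344 in the other 3 PQQ-H libraries.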

How the results depend on the processing

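Leaving out any 1 of the 12 libraries, the median log2FC of the 79 genes lay between −0.63 (without CON 2) and −0.23 (without CON 1) in PQQ-L vs. CON, between −0.30 and 0.10 in PQQ-H vs. CON and between 0.19 and 0.47 in PQQ-H vs. PQQ-L. The members lower numbered 78 to 79 and 9 to 79 in the first 2 comparisons, and 76 to 79 were higher in the third. Those with an adjusted p below 0.05 (limma) numbered 0 to 62 in PQQ-L vs. CON, the 62 coming without CON 2, and 0 in the other comparisons. Those at an unadjusted p below 0.05 in the same direction numbered 1 to 75, 0 to 4 and 1 to 62, so these counts rest on single libraries and on how the spread is estimated. Without CON 2, 19 of the 27 members named for PQQ-L vs. CON passed the test.

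In PQQ-L vs. CON, the 22 members at an unadjusted p below 0.05 became 12 without a filter, 8 with median-of-ratios factors, 11 as TPM, 9 after quantile normalization, 46 with only the 2 groups in the fit, 6 with array quality weights, 2 with the striatal marker level as a covariate and 0 without the 4 libraries rich in striatal markers. The median moved to −0.078 with that covariate and to 0.067 without those libraries, where 15 members were lower. In PQQ-H vs. CON, the 1 such member became 0 with only the 2 groups, with array quality weights and without those 4 libraries, and the 63 lower became 30 with median-of-ratios factors, 19 with the covariate and 2 without the 4 libraries. In PQQ-H vs. PQQ-L, the 17 became 9 without a filter, 30 with median-of-ratios factors, 39 with only the 2 groups, 11 without trend, 39 with array quality weights, 2 with the covariate and 2 without the 4 libraries. TPM shifted the median of all genes in PQQ-L vs. CON from −0.03 to 0.08. The cause of these changes was not tested.

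With the replicate number as a block, the medians were −0.35, −0.03 and 0.32, and 2, 1 and 0 members had an unadjusted p below 0.05 in the direction named. The numbers do not pair the libraries: same-numbered libraries correlated between −0.62 and 0.72 in their deviations from the group means.

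Signs of single members turned mainly without the 4 libraries rich in striatal markers. In PQQ-L vs. CON these were Rpl10 (0.011), Rpl11 (0.081), Rpl13a (0.036), Rpl22 (0.16), Rpl31 (0.031), Rpl36a (0.019), Rpl39 (0.12), Rpl4 (0.067), Rpl41 (0.034), Rpl5 (0.11), Rpl7 (0.12), Rplp0 (0.052), Rplp1 (0.16), Rplp2 (0.19), Rps2 (0.098), Rps26 (0.034), Rps27 (0.019), Rps3 (0.12), Rps4x (0.088) and Rps6 (0.027), and in PQQ-H vs. CON Rpl18 (0.044), Rpl36 (0.053), Rpl36a (0.040) and Rpl39 (0.11). After quantile normalization Rpl3 (0.024), Rpl4 (0.045), Rplp1 (0.052) and Rps2 (0.056) turned in PQQ-L vs. CON, and Rpl7l1 turned with median-of-ratios factors (0.018), as TPM (0.088), with array quality weights (0.015) and without CON 3 (0.019, with −0.062 without CON 1 as the other end). In PQQ-H vs. CON, array quality weights turned Rpl29 (−0.057) and Rps2 (−0.0058). Leaving out 1 library moved Rpl29 between −0.18 (without CON 2) and 0.30 (−0.052 without PQQ-H 2), Rpl3 between −0.031 (without PQQ-H 2) and 0.19, Rpl4 between −0.047 (without CON 2) and 0.20 (−0.011 without PQQ-H 2), Rplp1 between −0.14 (without CON 2) and 0.25 (−0.0092 without PQQ-H 2), and Rps2 between −0.081 (without CON 2) and 0.20 (−0.068 without PQQ-H 2).

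Among the paralogue ratios, leaving out 1 library moved the Rpl7l1 difference in PQQ-H vs. CON between −0.19 and 0.29 (−0.10 and −0.092 without numbers 3 and 4 of PQQ-H, and −0.074 without CON 3). The Rpl22l1 difference moved between −0.066 and 0.17 in PQQ-L vs. CON (−0.051 without PQQ-L 5) and between −0.15 and 0.088 in PQQ-H vs. CON (0.032 and 0.0080 without numbers 1 and 2 of PQQ-H). Every member had at least 385 reads in each library, and the 3 CON libraries limit every comparison with CON.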
